A study of Canis lupus familiaris with 25 samples.

Results

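The complement genes described are C7 and C6 of the terminal pathway, C3, CFD (factor D), the proteases C1R and C1S, and the C1q chains C1QA, C1QB and C1QC. They are 9 of the 15115 genes that the array names by a probe set of their own. They had been chosen by their difference between tumour and gland in these same arrays, with C7 set against C1q and the regulators. Their differences between the tissues are therefore given as a description, without a test. All 23 probe sets that name 1 of these genes alone passed the filter on low values, which asked for a value over log2 4 on 6 or more of the 22 arrays from dogs with both tissues. Each gene is represented by its probe set with the highest mean. Several of these probe sets carry the maker's suffix for probes that match more than a single transcript, so that their signal may include related transcripts.

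Complement is a cascade of plasma and tissue proteins that tags cells and debris for removal. The classical pathway starts with C1, in which the recognition protein C1q carries the proteases C1r and C1s. The alternative pathway amplifies the tag through factor D, and both meet at C3, whose cleavage marks the target surface. The terminal components, among them C6 and C7, then assemble into a pore in the membrane. Liver makes most of the circulating proteins, but macrophages are a major source of C1q, adipocytes of factor D (adipsin), and stromal and endothelial cells of several other components.

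Tumours were simple mammary carcinomas of dogs that already had lymph node metastases when the tumour was removed, and the glands were non-neoplastic mammary tissue. There were 13 carcinomas and 12 glands, and 11 dogs gave both tissues. The dogs were 9 to 16 years old and of different breeds. Pieces had been cut out by hand to enrich for epithelium, but stroma, vessels and fat can remain. In such bulk samples fewer cells of a type and less RNA per cell cannot be told apart. Dogs 1 and 9 gave a tumour alone and dog 8 a gland alone. No gene's level is set against another gene's, because probe sets differ in brightness.

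The labelled tissues were separated by a marker list, but some glands held other tissue as well. The basal and smooth muscle list, used for the myoepithelial layer of normal gland, lay between 11.79 and 13.15 in the glands and between 7.17 and 11.25 in the tumours, on the log2 scale and without overlap. Of its 9 genes 6 were tested, the keratin KRT17 and the smooth muscle genes ACTA2, MYH11, CNN1, TAGLN and MYLK. Smooth muscle outside that layer may therefore add to the list. EPCAM, an epithelial adhesion protein, averaged 14.08 in the gland and 14.04 in the tumour of the 11 dogs. The luminal epithelium list, to which EPCAM belongs (9 of 10 genes tested), differed by -0.76 ± 0.90 (SD), tumour minus gland. That list was lower in the tumour of 10 of 11 dogs, so that EPCAM alone is not read as a measure of epithelial content. Skeletal muscle genes were high in the glands of 6 of the 11 dogs (list means from 9.53 to 11.09), against 4.12 to 4.77 in the other 6 glands. Of the tumour titles, 9 end in a suffix b that the labels do not explain. The unpaired gland of dog 8 and the unpaired tumour of dog 9 stood apart from their tissue for several complement genes. They enter no paired difference, and relations within a tissue are also given without them.

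Counts over these genes are given with the background of the whole array. Limma with the dog as a block called 3 of the 9 genes lower (C7, C3 and CFD) and 0 higher, while among all 8885 genes tested 29.6% were called, 11.1% lower and 18.4% higher. These calls are those of the probe set that represents each gene. The median difference was -0.67 over the 9 genes and 0.10 over all genes. Of all genes, 2.87% were lower in tumour in 11 of 11 dogs, as C7 and CFD were. Since the 9 genes had been chosen on this contrast, nothing is read from these counts.

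C7 was lower in the tumour than in the gland of the same dog in 11 of 11 dogs. C7 is the terminal component that anchors the forming pore in the membrane. In the paired glands its log2 values ran from 5.18 in dog 14 through a median of 8.67 to 10.70 in dog 11, and in their tumours from 2.37 in dog 12 through 3.51 to 5.71 in dog 4. Among the paired arrays the tissues overlapped little, since 9 of the 11 paired glands lay above all 13 tumours. Of the paired glands only those of dogs 3 and 14 lay lower. The unpaired gland of dog 8, at 3.19, lay among the tumours. With that gland included, 10 of the 13 tumours lay inside the gland range. The mean difference was -4.27 ± 2.26 (SD, n = 11 dogs), a 19.3-fold lower level in tumour. As 6 of the 11 tumours were below log2 4, the limit for low values used here, the size of that fold is uncertain. In single dogs the difference ran from -0.86 in dog 14 to -7.22 in dog 11. The dimmer C7 probe set differed by -2.48 ± 1.70 and was lower in 10 of 11 dogs, the exception being dog 3 at 0.23.

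**Figure D1:**
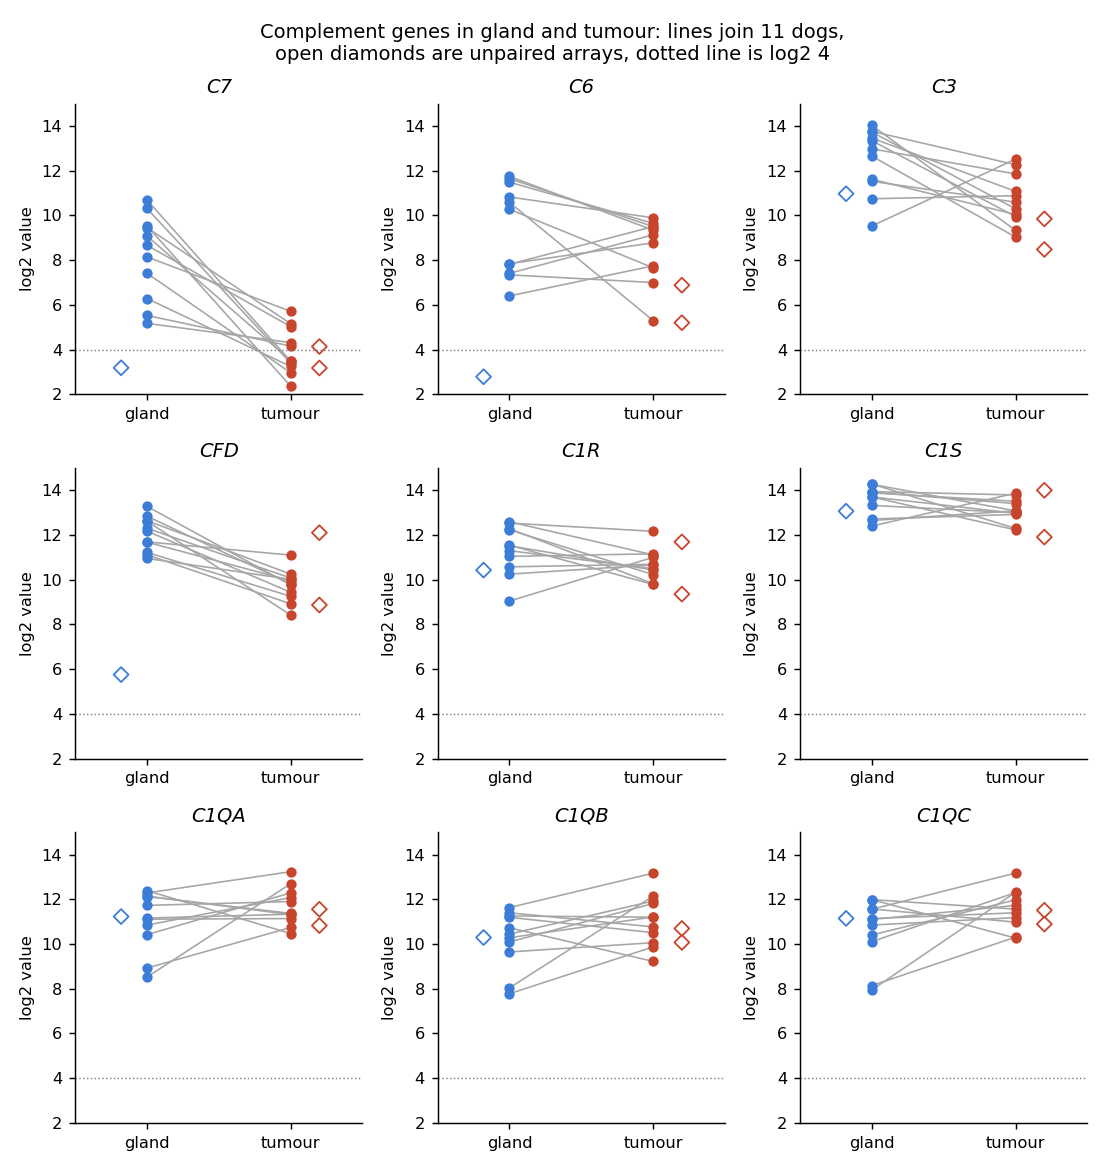
Log2 values of the 9 genes (y axis) in gland (blue) and tumour (red), with a grey line for each of 11 dogs, open diamonds for the unpaired arrays and a dotted line at log2 4. C7 and CFD are lower in tumour in 11 of 11 dogs, while lines of the C1q chains run both ways and the unpaired gland of dog 8 has C7 at 3.19 and CFD at 5.76.

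C6, the other terminal component with a level on these arrays, had a difference smaller than its spread over dogs. C6 joins the complex just before C7 and its gene lies beside that of C7, with 1 protein-coding gene between them in RefSeq's table for the dog assembly UU_Cfam_GSD_1.0. Paired glands had C6 values from 6.40 in dog 10 through 10.28 to 11.75 in dog 2, and paired tumours from 5.30 in dog 12 through 9.13 to 9.90 in dog 4. The glands fell into a high set of 6, all above every tumour, and a lower set of 5 that lay among the tumours. The difference was -0.90 ± 2.22, lower in 7 of 11 dogs, and it was -0.46 without dog 12, whose tumour had the lowest paired value. The other C6 probe sets differed by -0.58 ± 2.67 and -0.89 ± 1.96. C5, C8A, C8B, C8G and C9, the remaining terminal components, stayed below the filter.

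CFD, the protease that starts amplification in the alternative pathway, was also lower in the tumour of 11 of 11 dogs. Its values ran from 10.96 in dog 3 through 12.17 to 13.28 in dog 13 in the paired glands and from 8.42 in dog 6 through 9.82 to 11.10 in dog 4 in their tumours. Of these glands 6 lay above all 13 tumours, and among the paired tumours only that of dog 4 reached the range of the paired glands. The unpaired gland of dog 8, at 5.76, lay below every tumour. With that gland included, all 13 tumours lay inside the gland range. The mean difference was -2.32 ± 1.05, or 4.99-fold lower in tumour, and single dogs lay between -0.59 in dog 4 and -4.20 in dog 6.

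C3, the hub of the cascade, was lower in the tumour of 9 of 11 dogs. Paired glands ran from 9.53 in dog 3 through 12.98 to 14.03 in dog 5, and paired tumours from 9.03 in dog 6 through 10.59 to 12.52 in dog 3. Tumour and gland overlapped, with 7 of the 11 glands above all tumours, and dog 3 had both the lowest gland and the highest tumour. The difference was -1.77 ± 2.13 (3.42-fold lower), from -4.70 in dog 5 to 2.99 in dog 3, and it was -2.25 without dog 3. The mean differences of the 6 C3 probe sets lay between -1.67 and -2.05, but limma called only 2 of the 6 lower.

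C1R and C1S, the proteases of C1, have neighbouring genes in that table and differed little between tissues. C1R was between 9.05 and 12.59 in the paired glands (median 11.52) and between 9.79 and 12.17 in their tumours (median 10.66), with a difference of -0.67 ± 1.28, lower in 7 of 11 dogs. C1S lay between 12.40 and 14.28 in the glands (median 13.70) and between 12.23 and 13.87 in the tumours (median 13.08), with a difference of -0.42 ± 0.95, lower in 8 of 11 dogs. Both differences were smaller than their spread over dogs, and most tumours of either gene lay inside the gland range.

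The 3 chains of C1q, the recognition protein that macrophages secrete, had mean differences in the other direction, each smaller than its spread. Their genes follow one another in that table without another protein-coding gene among them. C1QA ran from 8.52 in dog 3 through 11.16 to 12.38 in dog 13 in the paired glands and from 10.47 in dog 13 through 11.37 to 13.23 in dog 11 in the tumours. C1QB ran from 7.78 in dog 14 through 10.45 to 11.63 in dog 11 in the glands and from 9.22 in dog 13 through 11.20 to 13.17 in dog 11 in the tumours. C1QC ran from 7.95 in dog 3 through 11.10 to 11.98 in dogs 12 and 13 in the glands and from 10.26 in dog 13 through 11.56 to 13.17 in dog 11 in the tumours. For each chain the tissues overlapped broadly, and no gland lay above all tumours. The differences were 0.63 ± 1.65 for C1QA (higher in 8 of 11 dogs), 0.85 ± 1.58 for C1QB (7 of 11) and 0.94 ± 1.67 for C1QC (8 of 11). Dog 3 had the largest differences of the 11 dogs, at 4.17, 4.11 and 4.36. Without that dog the means were 0.27, 0.53 and 0.60. Dogs 2, 12 and 13 had negative differences for all 3 chains.

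Set side by side within each dog, the C1q difference lay above the C7 difference in 11 of 11 dogs. The mean of the C1q chains differed by 0.81 ± 1.63 between tumour and gland, so that it stood 5.08 ± 2.14 above the C7 difference. This gap was smallest in dog 4 at 2.56 and largest in dog 5 at 8.84. Since C7 had been set against C1q in the choice of the genes, the gap is a description. Its size is as uncertain as the C7 fold. Dog 13, in which C1q differed by -1.71, had a gap of 3.86, with a C7 difference of -5.57. Dogs 3 and 14 combined the smallest C7 differences (-1.37 and -0.86) with high C1q differences (4.21 and 2.03). Their glands had the lowest values of the 11 paired glands for C7 as well as for C1QB.

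**Figure D2:**
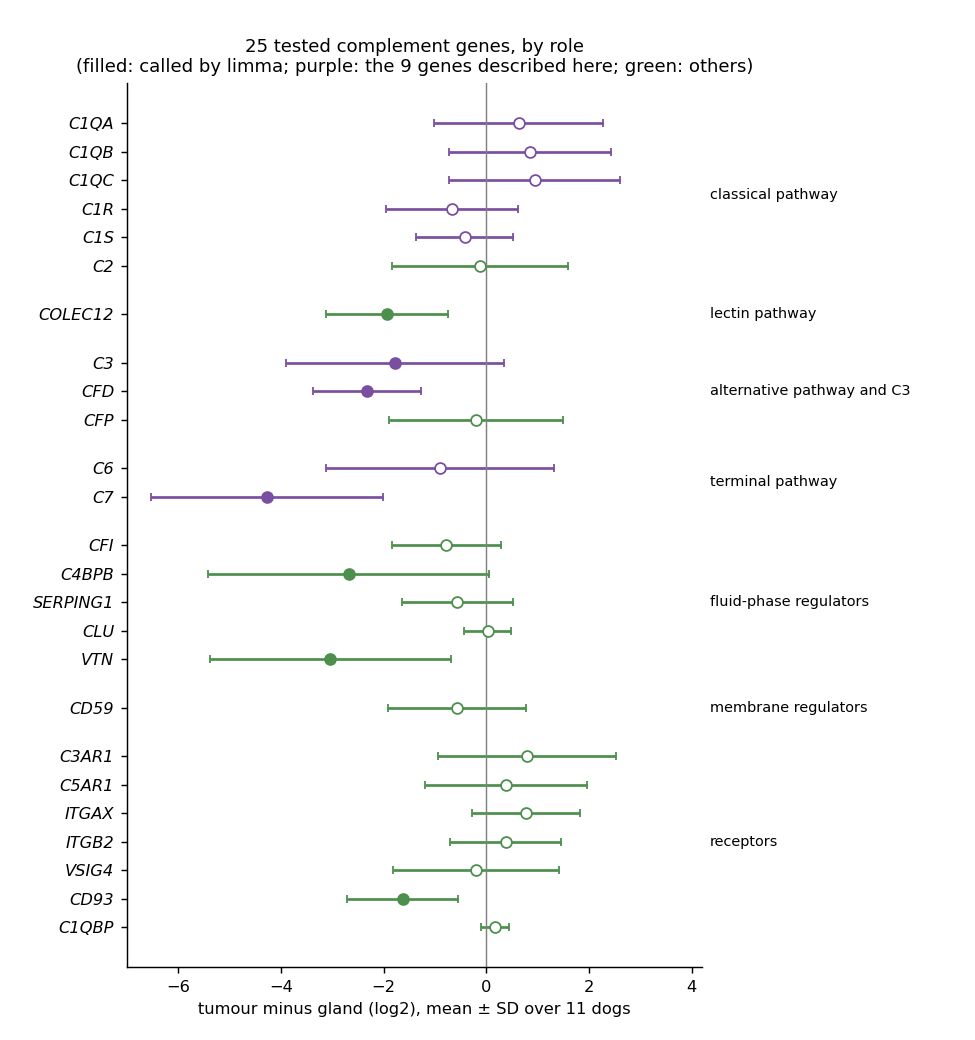
Difference between tumour and gland (x axis, log2) for the 25 complement genes tested, ordered by role, as mean and SD over 11 dogs. Purple marks the 9 genes described here and green the others. Filled points passed limma's threshold, which for the purple genes, chosen on this contrast, is a description and no test; C7 lies farthest to the left at -4.27 and no gene was called higher.

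The rest of the cascade was read from lists of 45 further complement genes, of which 16 were tested, 12 stayed below the filter and 17 had no probe set of their own. Of the 16, 4 fell, 0 rose and 12 did not pass, with a median difference of -0.20, beside 11.1% lower and 18.4% higher over all genes. At an unadjusted p under 0.05, limma had 5 of them lower and 1, ITGAX, higher, beside 16.1% lower and 26.5% higher over all genes. COLEC12, a scavenger receptor of vascular cells with a collectin-like domain, fell by 1.94 ± 1.18 (limma, adjusted p = 0.00150), lower in 11 of 11 dogs. CD93, a receptor of endothelial and myeloid cells that was once named as a C1q receptor, fell by 1.62 ± 1.08 (adjusted p = 0.00266), also in 11 of 11 dogs. It lay between 3.25 and 7.14 in the paired glands and between 2.40 and 4.83 in the tumours, 7 of 11 of them below log2 4, so that the size of its fall is uncertain as well.

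Among the fluid-phase regulators, 2 of 5 fell and 3 did not pass. VTN (vitronectin), which keeps the terminal complex out of membranes, fell by 3.03 ± 2.35 (adjusted p = 0.00440; 0.0127 without the filter on low values), with 10 of 11 tumours and 4 of 11 glands below log2 4. C4BPB, a chain of the C4b-binding protein, fell by 2.68 ± 2.73 (adjusted p = 0.0167; 0.0434 without the filter). Its tumours were below log2 4 in 10 of 11 dogs, while the tumour of dog 13 held the highest value of all at 9.92. VTN and C4BPB had passed the filter through their glands, and with most tumours at such low values the size of either fall is uncertain. Of the 4 VTN probe sets only 1 was tested, and the others, below the filter, differed by -1.41, -0.44 and -0.01. The other regulators did not pass. CFI (factor I, which cleaves C3b) differed by -0.78 ± 1.06 (adjusted p = 0.0595) and SERPING1 (the C1 inhibitor) by -0.56 ± 1.08 (adjusted p = 0.161). CLU (clusterin), which binds the terminal complex in fluid, differed by 0.03 ± 0.46 (adjusted p = 0.892), between 14.52 and 15.57 in the glands and 14.55 and 15.93 in the tumours. CFI passed when dog 3 or dog 14 was left out (adjusted p = 0.0457 and 0.0105) and after a second quantile normalization (0.0470). SERPING1 passed without dog 3 (0.0440). The membrane regulator CD59, which blocks pore assembly on host cells, differed by -0.57 ± 1.34 (adjusted p = 0.249).

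Receptors and remaining components mostly did not pass. The anaphylatoxin receptors C3AR1 and C5AR1 differed by 0.79 ± 1.74 (adjusted p = 0.223) and 0.38 ± 1.58 (adjusted p = 0.530). The integrin chains of the complement receptors, ITGAX and ITGB2, differed by 0.78 ± 1.05 (adjusted p = 0.0655) and 0.38 ± 1.08 (adjusted p = 0.360). ITGAX passed with all 25 arrays (adjusted p = 0.0241) and without dog 7 or 12 (0.0353 and 0.0494). VSIG4, a C3b receptor of resident macrophages, differed by -0.19 ± 1.61 (adjusted p = 0.765). C2, the protease of the classical convertase, differed by -0.12 ± 1.72 (adjusted p = 0.868), the properdin gene CFP by -0.20 ± 1.70 (adjusted p = 0.777) and C1QBP, a mitochondrial protein that binds C1q, by 0.17 ± 0.28 (adjusted p = 0.237).

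In the 5 dogs whose gland had no skeletal muscle signal, none of the 4 falls passed (adjusted p from 0.0638 to 0.162). With fewer dogs COLEC12, C4BPB and CD93 differed by -1.52, -3.63 and -1.79, and VTN by only -1.49. The C7 difference was -3.89 ± 2.13 in these 5 dogs and -4.58 ± 2.52 in the 6 dogs with muscle in the gland. For C3 these values were -1.98 ± 3.07 and -1.61 ± 1.21, and for CFD -2.10 ± 1.50 and -2.50 ± 0.56. In the 9 dogs whose tumour title carries the suffix b, C7 differed by -3.62 ± 1.94, CFD by -2.32 ± 1.17, C3 by -1.63 ± 2.30 and C6 by -0.31 ± 1.80. The other 2 dogs, 11 and 12, had C7 differences of -7.22 and -7.17. C4BPB did not pass in the 9 dogs (-2.40, adjusted p = 0.0732).

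The unpaired arrays did not all follow the paired ones. The tumour of dog 1 had C7 at 3.18 and CFD at 8.87, inside the range of the paired tumours and below all paired glands. Its C3 was 8.48, below all paired tumours. In the tumour of dog 9, C7 was 4.14, among the paired tumours, but CFD was 12.10, above all paired tumours and inside the gland range. The gland of dog 8 departed most, with C7 at 3.19 and C6 at 2.79, both below log2 4, and CFD at 5.76, the lowest of the 25 arrays. Its C1q chains were 11.23, 10.29 and 11.14, well inside the gland range, as was C3 at 10.97. COLEC12 at 5.85 was below all paired glands as well, the lowest of which was 6.07. VTN at 2.31 and CD93 at 3.17 were close to the lowest paired glands (2.35 and 3.25), all below log2 4, and are not read as a departure. In the tumour of dog 9, COLEC12 at 9.23 and CD93 at 5.55 were above all paired tumours.

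Cell type markers in that gland are given beside these values, and their part in them was not tested. Its basal and smooth muscle list was 12.71, inside the gland range and above all tumours. The fibroblast (9.85), endothelium (5.77), adipocyte (7.00) and T cell (5.36) lists were each the lowest of the 12 glands. The macrophage list was 8.23, toward the low end of a gland range of 7.55 to 10.21. Only the glands of dogs 3 and 14 had lower macrophage lists, at 7.55 and 8.06. With all 25 arrays and the dog as a random block, the differences were -3.97 for C7, -1.82 for CFD and -1.86 for C3.

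Markers of other cells differed between the tissues as well. The endothelium list (11 of 11 genes tested, 10 called lower) differed by -1.63 ± 0.70 and was lower in 11 of 11 dogs, running from 5.77 to 9.15 in the glands and from 5.25 to 7.64 in the tumours. The adipocyte list (7 of 12 tested, 5 called lower) differed by -1.89 ± 0.69, also in 11 of 11 dogs, and ran from 7.00 to 11.61 in the glands and from 6.80 to 10.13 in the tumours. Its genes were uneven. FABP4, CD36 and CIDEA differed by -4.45, -3.72 and -3.51, ADIPOQ and PNPLA2 by -0.93 and -0.63, and LPL and GPD1 by -0.01 and 0.02. The fibroblast list (12 of 12 tested, 2 called lower) differed by -0.48 ± 1.38, lower in 7 of 11 dogs, from 9.85 to 12.78 in the glands and 8.95 to 13.00 in the tumours. The macrophage list (12 of 12 tested, 0 called, 0 at an unadjusted p under 0.05) differed by 0.35 ± 1.28, higher in 6 of 11 dogs, from 7.55 to 10.21 in the glands and 8.35 to 10.80 in the tumours. No tested gene of these 4 lists was below log2 4 in all tumours or all glands. However, the mean over the paired tumours was below log2 4 for TEK (3.39), ESAM (3.70) and CDH5 (3.72) of the endothelium list and CIDEA (3.94) of the adipocyte list. The part of these 4 lists in the differences of the complement genes was not tested.

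Within a tissue, where the contrast that chose the genes plays no part, 10 relations between a complement gene and a marker list were tested by permutation with 100000 resamples. C7 correlated with the endothelium list. In the 12 glands Pearson's r was 0.91 (permutation p = 0.000300, adjusted p = 0.00300) and Spearman's rho 0.83 (permutation p = 0.00168, adjusted p = 0.0168). It was 0.87 without the glands farthest from the median, those of dogs 2 and 8, 0.84 without dog 8 alone, and 0.87 and 0.95 in the 6 glands with and the 6 without muscle signal. In the 13 tumours r was 0.64 (permutation p = 0.0212, adjusted p = 0.0353), with rho at 0.56 (permutation p = 0.0514, adjusted p = 0.0856). It was 0.68 without dogs 7 and 9, and also without dog 9 alone. C7 was below log2 4 in 7 of these 13 tumours, so that every relation of C7 in tumours rests in part on low values. With the fibroblast list C7 gave r of 0.42 in glands (permutation p = 0.174, adjusted p = 0.193, rho 0.28, permutation p = 0.378) and 0.44 in tumours (permutation p = 0.130, adjusted p = 0.162, rho 0.46, permutation p = 0.115). The r in glands was 0.03 without dogs 2 and 8, so that it rested on those glands, and 0.14 without dog 8 alone. In the 6 glands with muscle signal r was 0.03, and in the 6 without it, dogs 2 and 8 among them, 0.65. In tumours it was 0.47 without dogs 7 and 9, and also without dog 9 alone. The difference between the relations with the 2 lists was not tested.

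C1QB and C3 correlated with the macrophage list, which holds no complement gene. For C1QB r was 0.72 in glands (permutation p = 0.0123, adjusted p = 0.0308; rho 0.68, permutation p = 0.0197, adjusted p = 0.0656) and 0.67 in tumours (permutation p = 0.0159, adjusted p = 0.0319; rho 0.60, permutation p = 0.0319, adjusted p = 0.0798). Both rested on the ends of the range, since r was 0.37 without the glands of dogs 3 and 14 and 0.28 without the tumours of dogs 3 and 11. For C3 r was 0.81 in glands (permutation p = 0.00346, adjusted p = 0.0173; rho 0.76, permutation p = 0.00594, adjusted p = 0.0297) and 0.61 without the glands of dogs 3 and 14. In tumours it was 0.70 (permutation p = 0.00838, adjusted p = 0.0279; rho 0.56, permutation p = 0.0504, adjusted p = 0.0856), but it rested on dogs 3 and 11, without which it was 0.29. Leaving out dog 8 or dog 9 gave r between 0.68 and 0.79 for these 4 relations. Glands with and without muscle signal gave 0.74 and 0.70 for C1QB and 0.84 and 0.81 for C3.

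CFD and the adipocyte list did not pass in either tissue. In glands r was 0.75 (permutation p = 0.0440, adjusted p = 0.0628; rho 0.48, permutation p = 0.117, adjusted p = 0.146). It rested on the glands of dogs 8 and 11, without which r was 0.04, and it was 0.22 without dog 8 alone. Glands with muscle signal gave 0.15 and those without it, dog 8 among them, 0.89. In tumours r was 0.26 (permutation p = 0.373, adjusted p = 0.373; rho 0.09, permutation p = 0.784, adjusted p = 0.784). Without the tumour of dog 9, which had high CFD and an adipocyte list of 7.14, r was 0.63 (permutation p = 0.0348, adjusted p = 0.0497), and without dogs 4 and 11 it was -0.20.

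**Figure D3:**
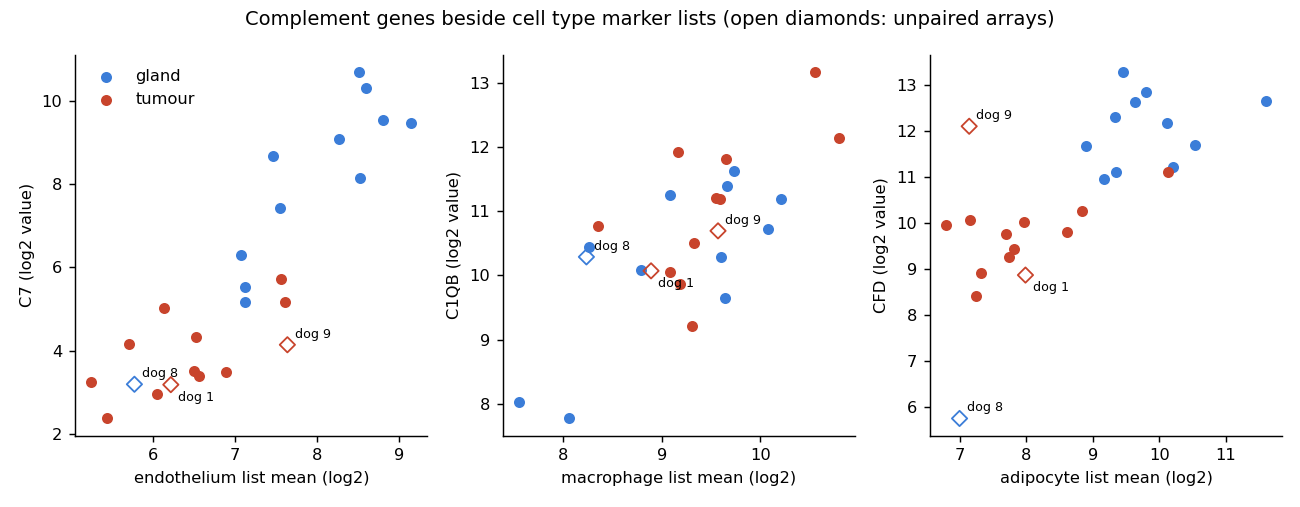
Log2 values of C7, C1QB and CFD (y axes) against the mean log2 value of the endothelium, macrophage and adipocyte lists (x axes) in glands (blue) and tumours (red), with unpaired arrays as open diamonds. C7 rises with the endothelium list in the glands (r = 0.91), and the gland of dog 8 and the tumour of dog 9 stand apart for CFD.

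How the genes varied together was described after the tissue means had been removed. Over the 25 arrays, which hold 11 pairs from the same dog, Pearson's r was between 0.92 and 0.98 for the 3 pairs of C1q chains and 0.88 for C1R with C1S. C7 correlated at 0.70 with C3, at 0.65 with C6 and with CFD, and at 0.36 to 0.46 with the C1q chains. CFD had the lowest values with the C1q chains, from 0.20 to 0.26.

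**Figure D4:**
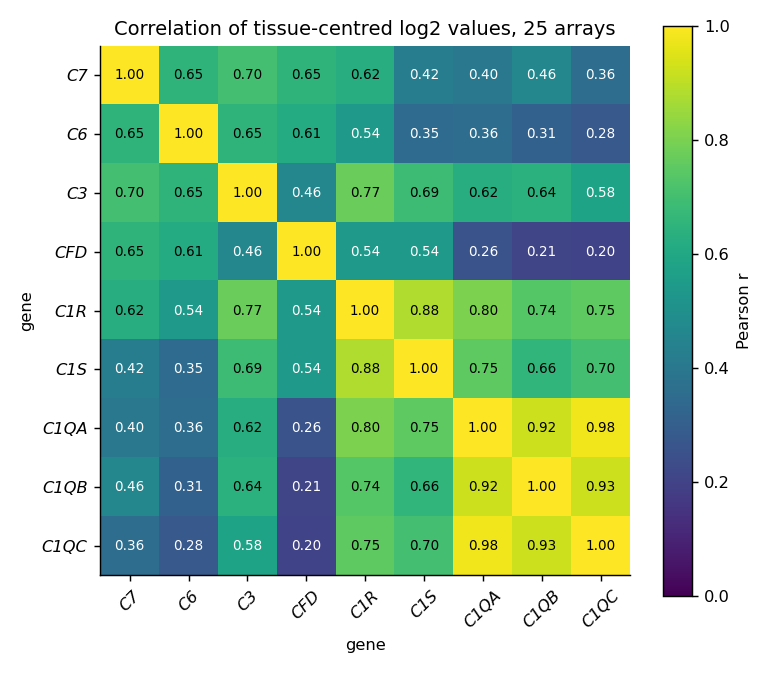
Pearson's r between the 9 genes over 25 arrays after removal of each tissue's mean; the colour scale runs from 0 to 1. The C1q chains form a block at 0.92 and above, and CFD and the C1q chains share the lowest values.

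Within each tissue, 6 pairs of these genes were tested, a family of 12 relations chosen after the values were seen. C1QB correlated with C1QA at 0.97 and with C1QC at 0.96 in the 13 tumours (rho 0.97 and 0.96; for both measures, permutation p = 2e-05, the smallest these resamples can give, and adjusted p = 0.000120). Without the tumours of dogs 11 and 13, r was 0.94 and 0.92. In the 12 glands these pairs had r of 0.91 (permutation p = 0.000800, adjusted p = 0.00192; rho 0.78, adjusted p = 0.00892) and 0.93 (permutation p = 0.000960, adjusted p = 0.00192; rho 0.83, adjusted p = 0.00605). Without the low glands of dogs 3 and 14, r was 0.65 in both. The proteases C1R and C1S gave 0.86 in tumours (permutation p = 0.000140, adjusted p = 0.000420; rho 0.78, adjusted p = 0.00605) and 0.92 in glands (permutation p = 8e-05, adjusted p = 0.000320; rho 0.90, adjusted p = 0.00112). It was 0.77 without the tumours of dogs 1 and 9 and 0.85 without the glands of dogs 3 and 14. Without dog 9 in tumours or dog 8 in glands, r for these 3 pairs lay between 0.83 and 0.97.

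C7 was also paired with C1QB, C6 and CFD, with the limit that it was below log2 4 in 7 of the 13 tumours. C7 with C1QB gave 0.13 in tumours (permutation p = 0.657, adjusted p = 0.657; rho 0.11, permutation p = 0.723), 0.24 without dogs 11 and 13, and 0.14 without dog 9. In glands it gave 0.63 (permutation p = 0.0428, adjusted p = 0.0571; rho 0.66, permutation p = 0.0241, adjusted p = 0.0413), 0.47 without dogs 3 and 14, and 0.82 without dog 8 (permutation p = 0.00368, adjusted p = 0.00631). C6 with C7 gave 0.71 in glands (permutation p = 0.0141, adjusted p = 0.0212; rho 0.50, permutation p = 0.0982, adjusted p = 0.118). It rested on single glands, being 0.42 without dogs 8 and 14 and 0.48 without dog 8 (permutation p = 0.137, adjusted p = 0.164). In tumours C6 with C7 gave 0.48 (permutation p = 0.0878, adjusted p = 0.105; rho 0.57, permutation p = 0.0441, adjusted p = 0.0588), 0.29 without dogs 2 and 4, and 0.62 without dog 9 (permutation p = 0.0213, adjusted p = 0.0320). C7 with CFD gave 0.73 in glands (permutation p = 0.00858, adjusted p = 0.0147; rho 0.62, permutation p = 0.0379, adjusted p = 0.0568) and 0.51 without dog 8 (permutation p = 0.105, adjusted p = 0.140) or without dogs 8 and 13. In tumours it gave 0.29 (permutation p = 0.339, adjusted p = 0.370; rho 0.26, permutation p = 0.397) and 0.23 without dogs 6 and 9, or 0.34 without dog 9 alone. Within glands with and without muscle signal, r was 0.89 and 0.39 for C7 with C1QB, 0.65 and 0.72 for C7 with C6, and 0.54 and 0.83 for C7 with CFD, in 6 glands each.

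The genes most like C7, C1QB and C3 were read from the tissue-centred values over 25 arrays, as a description. For C7 they were FAM167B (r = 0.85), the endothelial junction protein ESAM (0.82), the endothelial surface protein ECSCR (0.81), PLVAP of fenestrated endothelium (0.81) and CSGALNACT1, a chondroitin sulphate enzyme (0.80). Of these 5 genes 4 were called lower in tumour, by 1.39 to 2.89, beside 11.1% of all genes tested. PLVAP was not called at -0.34. ESAM also belongs to the endothelium list, and LAPTM5 and CYBB, named next, to the macrophage list. For C1QB they were C1QC (0.93), C1QA (0.92), the leukocyte lysosomal protein LAPTM5 (0.85), the myeloid transcription factor SPI1 (0.84) and PLEKHO1 (0.82), none of them called between tissues. For C3 they were TMEM176A (0.78), CYBB, the phagocyte oxidase subunit (0.78), C1R (0.77), DRAM1 (0.76) and the leukocyte protein CD48 (0.76), also none called. Of all genes tested 29.6% were called in either direction, and nothing is read from the counts of called genes in these short lists.

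In the tumours the levels of the 9 genes were also set against survival after surgery, tumour size and age, which had no part in their choice. Limma called 0 of 21260 probe sets for survival from 1 to 9 months in 12 tumours (0%) and 0 of 21433 for size from 0.5 to 5 cm in 13 tumours (0%). At an unadjusted p under 0.05 there were 523 and 2026, and 2529 of 21433 for age. For age 2 of 21433 were called (0.00933%), neither of them a probe set that represents these genes. The slope of C7 was -0.10 per month of survival (95% interval -0.31 to 0.10, adjusted p = 1.00) and -0.12 per cm (95% interval -0.55 to 0.32, adjusted p = 0.874). C1QC had the smallest unadjusted p of the 9 genes in any trend, with a slope of 0.17 per year of age (95% interval 0.01 to 0.32, p = 0.0373, adjusted p = 0.388). C1QB and C1QA had age slopes of 0.20 (95% interval -0.01 to 0.41, adjusted p = 0.459) and 0.13 (95% interval -0.03 to 0.29, adjusted p = 0.530), and C6 one of -0.29 (95% interval -0.61 to 0.02, adjusted p = 0.458). None of these trends passed the threshold, and those of C7 rest in part on low values, with 7 of the 13 tumours below log2 4.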

How the data were processed

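The authors deposited 1 normalized log2 value per probe set and array for 43035 probe sets on 25 Affymetrix canine arrays. The submitters' processing notes list Partek, GCRMA and RMA with neither version nor role. Values run from 0.86 to 16.66. Gene names came from the platform annotation, and probe sets with several symbols were not used.

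After removal of 175 control probe sets, 21552 were tested for tumour against gland in the 22 paired arrays with limma 3.58.1 in R 4.3.3 (lmFit, eBayes with trend), dog as a fixed block, 2-sided, Benjamini-Hochberg threshold 0.05. Trends used probe sets above log2 4 in at least 4 tumours. Relations used scipy 1.17.1. Only the tumour against gland test and the size trend were run on simulated data, with independent normal noise for each probe set. The survival and age trends were not simulated. The pairing comes from the dog numbers in the labels, and after removal of tissue means tumour and gland of a dog correlated at 0.12 to 0.46 in all 11 dogs. Named genes were the 9, every tested gene of the complement lists, and the 5 most alike genes of C7, C3 and C1QB. List differences not given above, tumour minus gland, were 0.54 ± 1.70 for T cell, -0.20 ± 3.03 for neutrophil and -3.82 ± 3.54 for skeletal muscle genes. The genes and lists were chosen with earlier results of these data known. Each dog is 1 replicate. No sequences were used here.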

Additional observations from a re-analysis of the deposited data

How the results depend on the processing

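The number of probe sets called between tumour and gland was 6128 with the dog as a replicate block and 5003 without it, which changed no call among the 16 other complement genes. It was 573 in the 5 dogs with no muscle signal in their gland and 4083 in the 9 dogs whose tumour title ends in b (chosen after seeing the data), where fewer dogs were tested, and 4789 to 6235 with each dog left out. The mean differences of the 9 genes kept their sign in all 180 alternative values, each within 1 SD over dogs of the reported one. That limit could hardly be passed, since leaving out a single dog moves a mean by only a fraction of this SD. Dropping the block or changing the filter on low values cannot move these means at all. The limit is therefore not read as a test of stability. C1QA differed by 0.63 with all paired dogs and by 0.27 without dog 3. C6 differed by -0.90, and by -0.31 in the dogs whose tumour title ends in b. Of 318 alternative values of the 16 other genes, 5 lost a call, all in the smaller sets of dogs, and 7 gained one. VTN has no value with all probe sets of a gene averaged, so that its fall was not tested in that setting. CFP has none with a stricter filter on low values. The 2 age calls were 0 without a filter on low values and 0 to 3 with single dogs left out. With Spearman's rho in place of r, 4 relations no longer passed: C7 with endothelium in tumours (0.56), C1QB with macrophage in tumours (0.60) and glands (0.68), and C3 with macrophage in tumours (0.56). For CFD with adipocyte in tumours r was 0.63 without dog 9. The causes were not tested. The number of dogs limits precision, and values near log2 4 understate or blur folds.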
